A study of Arabidopsis thaliana with 4 samples.

Results

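The 9 loci of the mitochondrial retrograde response were examined in Arabidopsis thaliana Col-0, a standard laboratory accession, whose plants had been exposed to gaseous (E)-2-hexenal, an electrophilic leaf aldehyde that wounded leaves give off. They were taken by locus code: the membrane-tethered factors NAC013 (AT1G32870), NAC016 (AT1G34180) and NAC017 (AT1G34190), the alternative oxidases AOX1A (AT3G22370) and AOX1D (AT1G32350), the alternative dehydrogenases NDB2 (AT4G05020) and NDA1 (AT1G07180), and the mitochondrial stress genes UPOX (AT2G21640) and OM66 (AT3G50930). All 9 were among the 30361 loci measured. The treated group was wild-type Col-0 kept for 30 min with 10 µM hexenal and is represented by 3 arrays, which the labels call biological replicates. The control group was wild-type Col-0 sampled at 30 min with acetonitrile, the solvent, and is represented by 1 array. Each RNA came from a pool of at least 6 plants, whose age is not given, and the light, the closed box and the acetonitrile were common to both groups. With 1 control, every p-value rests on the spread among hexenal arrays and takes the same spread for the control.

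Retrograde signalling carries information from stressed mitochondria to the nucleus. In Arabidopsis, NAC017 and NAC013 are held in the endoplasmic reticulum membrane and are released when mitochondrial function is disturbed. They then bind a short promoter element shared by a set of nuclear genes, among them genes for mitochondrial proteins. AOX1A is the usual reporter of this route. Its enzyme passes electrons from ubiquinol straight to oxygen, and NDB2, which oxidises NADH on the outer face of the inner membrane, is commonly expressed together with it.

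The 4 arrays had similar medians, from 936 to 982 in deposited intensity units. After quantile normalization of the log2 values, hexenal array 3 lay closest to the control, with a median absolute difference of 0.198 against 0.355 for array 1 and 0.330 for array 2. The leaf markers RBCS1A, CAB1 and RCA had a summed intensity of 139000 to 155000 on the 4 arrays. The flower markers AP3, PI, SEP3, AG and AP1 were all highest on hexenal array 1, where they summed to 753 against 335 to 364 on the other arrays. Among the 9 retrograde genes, hexenal array 1 exceeded array 2 by at most 0.24 on the log2 scale and array 3 by up to 2.14, both for NDB2. In the other direction, array 1 minus array 2 went down to -1.03, for AOX1D, and was -0.46 for OM66. Whether organ content affected the 9 genes was not tested. In such whole-plant RNA, fewer cells of a type and less RNA per cell cannot be told apart.

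None of the 9 genes passed the test. A gene was called when limma, with Benjamini-Hochberg adjustment over all loci, gave an adjusted p below 0.05 and the change was at least 2-fold. Calls towards higher expression made up 0.866% of all loci and calls towards lower expression 0.0329%. At an unadjusted p below 0.05, 3 of the 9 (AOX1A, OM66 and NAC016) and 2656 of all loci passed. The genes nevertheless separated by size of change. OM66, AOX1A and NDB2 were each over 3-fold higher in the hexenal mean, and the other 6 stayed below 2-fold in either direction. A mean at least 2-fold higher was found for 4.27% of all loci. The median log2 change of the 9 was 0.36, and that of all loci was -0.03. Because the 9 genes were chosen with earlier results of these data known, these contrasts with all loci are a description only.

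**Figure D1:**
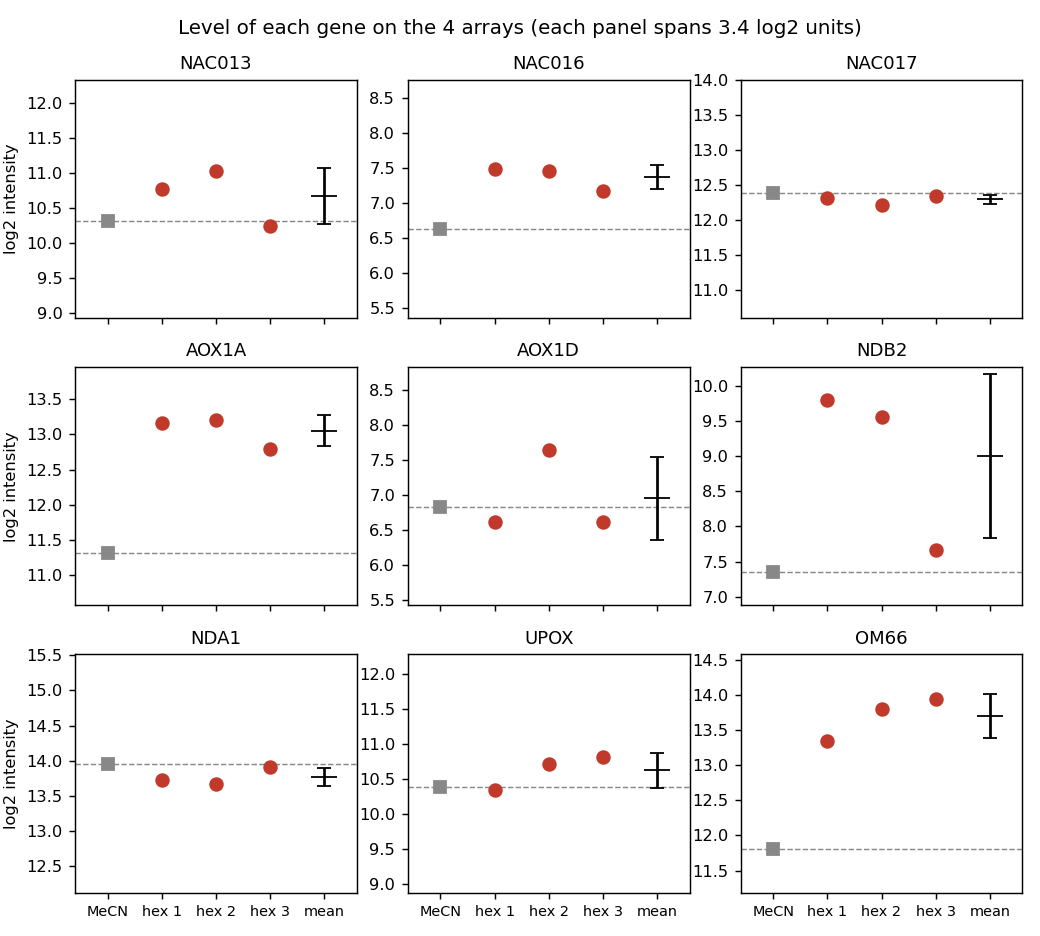
Normalized log2 intensity of each of the 9 genes on the acetonitrile array (MeCN, grey square and dashed line) and on hexenal arrays 1 to 3 (red points), with the hexenal mean and SD (black, n = 3). AOX1A and OM66 lie above the control on all 3 hexenal arrays by 1.49 or more, whereas NDB2 does so by 2.46 and 2.22 on arrays 1 and 2 and by 0.32 on array 3.

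The alternative oxidase gene AOX1A had deposited intensities of 9190, 9584 and 7108 on hexenal arrays 1, 2 and 3, against 2498 on the control array. On the normalized log2 scale these levels were 13.16, 13.21 and 12.80 against 11.31. All 3 hexenal arrays lay clear of the control, and the lowest of them still exceeded it by 1.49, or more than 3 times the 0.42 that separated the hexenal arrays from each other. The mean change was 1.74 ± 0.28 (SE), a 3.35-fold difference with a 95% interval from 2.06 to 5.44. Its adjusted p of 0.0859 in limma missed the threshold, and 461 of the 30361 loci, itself included, had a change as high or higher.

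AOX1A was called in 3 of 12 alternatives, given next, and not with a robust prior alone. The trend alone, the first of them, was added after the data were seen. When the prior variance in limma was allowed to follow the level of the gene (trend), the adjusted p of AOX1A was 0.00369, or 0.00296 with a robust prior as well. Without the dimmest 50% of loci it was 0.0187. Over all alternatives tried, its adjusted p ran from 0.00296 to 0.415, the highest without hexenal replicate 2, and its change from 1.67 to 1.88.

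The other alternative oxidase genes gave no such difference. AOX1D, a close relative of AOX1A, had log2 levels of 6.61, 7.64 and 6.62 on the hexenal arrays and 6.83 on the control. Array 2 alone was above the control, by 0.81, and arrays 1 and 3 were 0.22 and 0.21 below it, so the groups overlapped. The mean change of 0.13 ± 0.47 turned to -0.22 when hexenal replicate 2 was left out. AOX1B, the coding gene directly beside AOX1A in the TAIR10.1 annotation, stood at 0.23 ± 0.25. AOX1C stood at 0.21 ± 0.26 and AOX2 at -0.18 ± 0.24. AOX1B, AOX1C, AOX1D and AOX2 all had control intensities in the dimmest 25% of loci, where background can hide a change. Whether AOX1A differed from its relatives in response was not tested.

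OM66 encodes an AAA-type ATPase of the outer mitochondrial membrane. Its deposited intensities were 10477, 14559 and 15787 on hexenal arrays 1, 2 and 3 and 3551 on the control. The corresponding log2 levels were 13.35, 13.81 and 13.95 against 11.81. All 3 lay above the single control, as was found for 26.1% of all loci. The mean change of 1.89 ± 0.32 was the highest of the 9 genes, 3.71-fold with a 95% interval from 2.13 to 6.44. Its adjusted p in limma was 0.0972. Leaving out hexenal replicate 1, the lowest of the 3, gave 2.07 with an adjusted p of 0.0239. With the variance trend the adjusted p was 0.00329, and without the dimmest 50% of loci it was 0.0212. Over all alternatives the adjusted p of OM66 ran from 0.00189 to 0.445, the highest without hexenal replicate 2.

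The arrays on which AOX1A and OM66 were highest were not the same. AOX1A was lowest on array 3, where OM66 was highest, and OM66 was lowest on array 1. The differences among hexenal arrays were small for both beside the distance to the control. Array 3, the array nearest to the control over all loci, was 0.36 and 0.41 below arrays 1 and 2 for AOX1A, and 0.60 and 0.14 above them for OM66.

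NDB2 behaved differently. Its deposited intensities were 915 and 760 on hexenal arrays 1 and 2, but 210 on array 3 and 173 on the control. In log2 units the levels were 9.80, 9.56 and 7.67 against 7.35. All 3 hexenal arrays were above the control, yet array 3 exceeded it by 0.32 only and lay 2.14 below array 1 and 1.90 below array 2. The mean change was 1.66 ± 0.85, 3.17-fold, and its 95% interval on the log2 scale ran from -0.48 to 3.80 (adjusted p = 0.659, limma). The SD of NDB2 over the hexenal arrays, 1.17, was higher than that of 99.7% of loci. Without hexenal replicate 3 the change was 2.37 with an adjusted p of 0.0410 in limma, from 2 hexenal arrays (0.0410 to 1 over all alternatives). Without replicate 1 or 2 the change was smaller, down to 1.24. The control level of NDB2 lay among the dimmest 25% of loci, so background signal can affect its fold change.

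**Figure D2:**
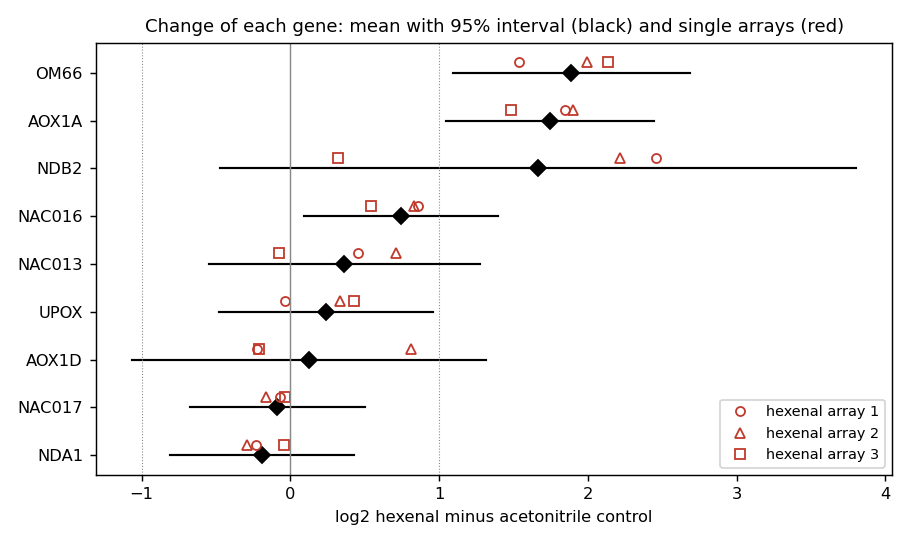
Log2 difference between hexenal and the acetonitrile control for each of the 9 genes, ordered by mean. Black diamonds and lines are the mean and its 95% interval from limma, red open symbols are hexenal arrays 1, 2 and 3 (n = 3), and dotted lines mark a 2-fold change. The intervals of OM66, AOX1A and NAC016 lie above 0 before adjustment for multiple testing, and that of NDB2 is the widest.

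Among all loci, 257 (0.846%) were at least 2-fold above the control on hexenal arrays 1 and 2 and within 0.5 log2 units of it on array 3. NDB2 was the single one of the 9 genes with this arrangement, and 0 of 61 other genes in the mitochondrial lists described below had it. The mirror arrangements, with array 2 or array 1 near the control, held 11 and 4 loci. The arrangement is that of NDB2 itself, so the place of NDB2 among the 257 loci is a description only. Of the 1296 loci at least 2-fold higher in the mean, 57.1% were higher on arrays 1 and 2 than on array 3, against 38.4% of all loci. What set array 3 apart from the others was not tested.

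Of the remaining type II dehydrogenase genes, whose enzymes oxidise NAD(P)H without pumping protons, NDA1 encodes a matrix-facing enzyme known for its regulation by light. Its log2 levels were 13.73, 13.67 and 13.91 under hexenal and 13.96 in the control. The 3 hexenal arrays were all slightly below the control, with a mean of -0.19 ± 0.25. The 95% interval from -0.81 to 0.43 leaves out a 2-fold change in either direction only if the lone control varied like the hexenal arrays. NDA2, also matrix-facing, stood at 0.71 ± 0.34 with all 3 hexenal arrays above the control. NDC1, which is also found in chloroplasts, was at 0.16 ± 0.23. NDB1 was at -0.0046 ± 0.24, NDB4 at -0.06 ± 0.25 and NDB3 at -0.08 ± 0.23. The control levels of NDB1, NDB3 and NDB4 lay among the dimmest 25% of loci, where background can hide a change. Of the 7 genes of this family 0 were called and 0 had an unadjusted p below 0.05 in limma, and the median change was that of NDB1, -0.0046.

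The 3 NAC factors differed in pattern. NAC017, which acts upstream of AOX1A and was isolated as a regulator of it, had log2 levels of 12.32, 12.22 and 12.35 under hexenal and 12.39 in the control. All 3 hexenal arrays were within 0.17 of the control. Its mean change was -0.09 ± 0.23 with a 95% interval from -0.68 to 0.50. That interval is short of 2-fold in either direction, if the lone control varied like the hexenal arrays. Release of the protein from the membrane is not measured by these arrays.

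NAC013, itself a target of this route, had log2 levels of 10.76, 11.02 and 10.23 on hexenal arrays 1, 2 and 3 and 10.31 in the control. Arrays 1 and 2 were above the control by 0.46 and 0.71, and array 3 was 0.07 below it, so the groups overlapped. Its mean change of 0.36 ± 0.36 ranged from 0.19 without hexenal replicate 2 to 0.58 without replicate 3. Array 3 was the array nearest to the control for NAC013, as for NDB2, NAC016, NAC017, AOX1A, AOX1D and NDA1, and over all loci. For UPOX and OM66 the nearest was array 1.

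NAC016, a relative of NAC017 known for promoting leaf senescence and encoded directly beside it, had log2 levels of 7.49, 7.46 and 7.18 under hexenal against 6.63 in the control. All 3 hexenal arrays lay above the single control, which held for 26.1% of all loci. The mean change was 0.74 ± 0.26, 1.67-fold, with an unadjusted p of 0.0322 and an adjusted p of 0.492 in limma. The deposited intensities were 150 to 172 under hexenal and 103 in the control, among the dimmest 25% of loci.

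UPOX, a gene named for its up-regulation by oxidative stress, had log2 levels of 10.35, 10.72 and 10.81 under hexenal and 10.39 in the control. Array 1 was at the control's level and arrays 2 and 3 were 0.33 and 0.43 above it. The mean change was 0.24 ± 0.29, with a 95% interval from -0.48 to 0.96. This too is short of 2-fold in either direction, if the lone control varied like the hexenal arrays. Over the 9 genes, 4 had all 3 hexenal arrays above the control (AOX1A, OM66, NDB2 and NAC016), 2 had all 3 below it (NAC017 and NDA1) and 3 were mixed. Among all loci 26.1% had all 3 hexenal arrays above the control and 32.4% had all 3 below it.

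**Figure D3:**
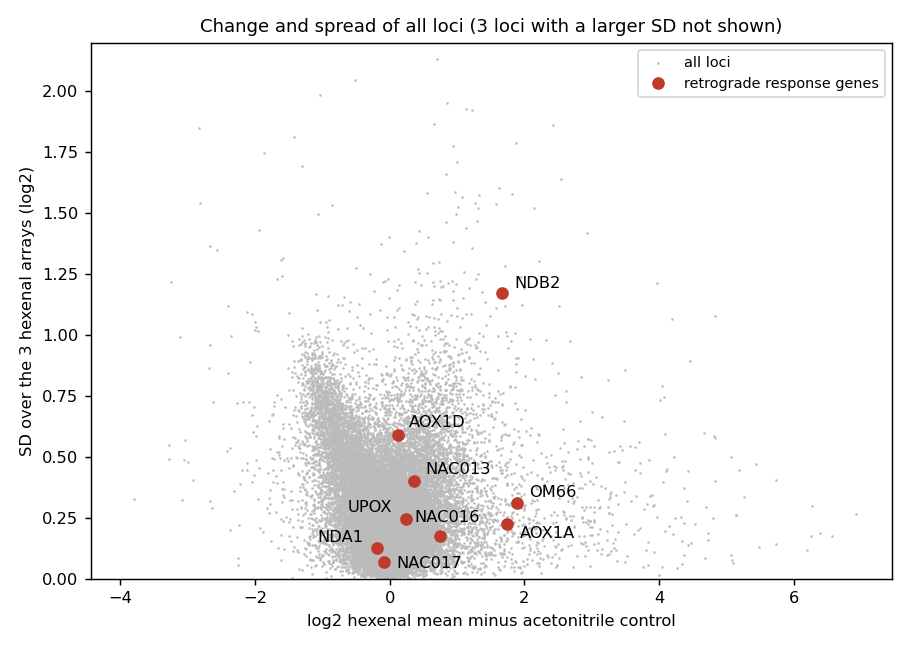
Mean log2 difference between hexenal and control (x axis) against the SD over the 3 hexenal arrays (y axis, log2) for all 30361 loci (grey) and the 9 retrograde response genes (red). AOX1A and OM66 combine changes of 1.74 and 1.89 with SDs of 0.23 and 0.31, while NDB2, at 1.66, has an SD of 1.17; 3 loci lie above the axis.

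Other genes of the pathway were taken from lists, which were chosen with earlier results of these data known. Beside them, limma called 0.866% of all loci higher and 0.0329% lower, and 2656 of 30361 had an unadjusted p below 0.05. Of 12 genes for membrane-tethered NAC factors, the 3 described above included, limma called 1 higher and none lower. That gene was NAC053 (AT3G10500), a factor of the response to proteasome stress. Its log2 levels were 12.90, 12.81 and 13.25 under hexenal against 10.52 in the control. It rose by 2.47 ± 0.28 (adjusted p = 0.0329, limma). NAC062, a factor released from the plasma membrane, stood at 1.39 ± 0.29 without passing, and NTL8 stood at -1.14 ± 0.29, with all 3 hexenal arrays below the control. The median of the 12 was 0.43, and 6 had an unadjusted p below 0.05. None of the rises in these lists was called by limma without hexenal replicate 2, when the smallest adjusted p among the 61 list genes was 0.102 and 14 had an unadjusted p below 0.05.

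Of 14 further genes known to respond to mitochondrial dysfunction, limma called 3 higher and none lower, against 0.866% and 0.0329% of all loci. The median of the 14 was 0.68, and 6 were at least 2-fold higher in the mean, against 4.27% of all loci. HSP23.6-MITO, a small heat shock protein of mitochondria, rose from 7.75 to 12.64, 12.73 and 13.46 (adjusted p = 0.0129, limma). The locus AT5G51440 rose from 9.45 to 14.03, 14.10 and 14.38, a change of 4.72 ± 0.26 (adjusted p = 0.00758, limma). The glucosyltransferase gene UGT74E2 rose by 2.44 ± 0.30 (adjusted p = 0.0398, limma), from 9.72 to 12.24, 12.38 and 11.85. The glutathione transferase gene GSTU24 stood at 3.03 ± 0.44 and was not called. In this list 11 of 14 genes had all 3 hexenal arrays above the control, against 26.1% of all loci. All 3 were below it for 1 of the 14, against 32.4% of all loci. Some of these genes also respond to heat and to reactive electrophiles, and the list overlaps with those responses.

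Among 10 other regulators of the response, limma called the WRKY factor genes WRKY40 and WRKY15 higher and none lower. The shares of all loci were 0.866% and 0.0329%. WRKY40 and WRKY15 changed by 2.62 ± 0.29 and 2.40 ± 0.29 (adjusted p = 0.0294 and 0.0395, limma). WRKY15 was at 9.08 in the control and at 11.52, 11.72 and 11.20 under hexenal. RBL2, a rhomboid protease gene, stood at -0.61 ± 0.32 and the WRKY gene ABO3 at -0.53 ± 0.24. The median of the 10 genes was -0.08.

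The 7 genes for mitochondrial carriers had a median of 0.17, and none was called by limma, while 2 had an unadjusted p below 0.05. These were the dicarboxylate carrier genes UCP5, at 1.81 ± 0.36, and DIC2, at 1.25 ± 0.30, both above the control on 3 of 3 hexenal arrays. The uncoupling protein gene PUMP1 stood at 0.38 ± 0.24 and the ADP/ATP carrier gene AAC1 at -0.31 ± 0.25. Of 13 nuclear genes of the standard respiratory chain and ATP synthase none was called by limma, and 1 had an unadjusted p below 0.05. That was the cytochrome c gene CYTC-2, with log2 levels of 10.96, 10.84 and 10.46 under hexenal and 9.51 in the control, a difference of 1.25 ± 0.29. The other 12 lay between -0.31 and 0.25, among them SDH2-2, a subunit of succinate dehydrogenase, at 0.25 ± 0.28, and the loci AT5G13440 and AT5G13430 at -0.31 ± 0.28 and -0.21 ± 0.30. The median of the 13 was -0.02.

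**Figure D4:**
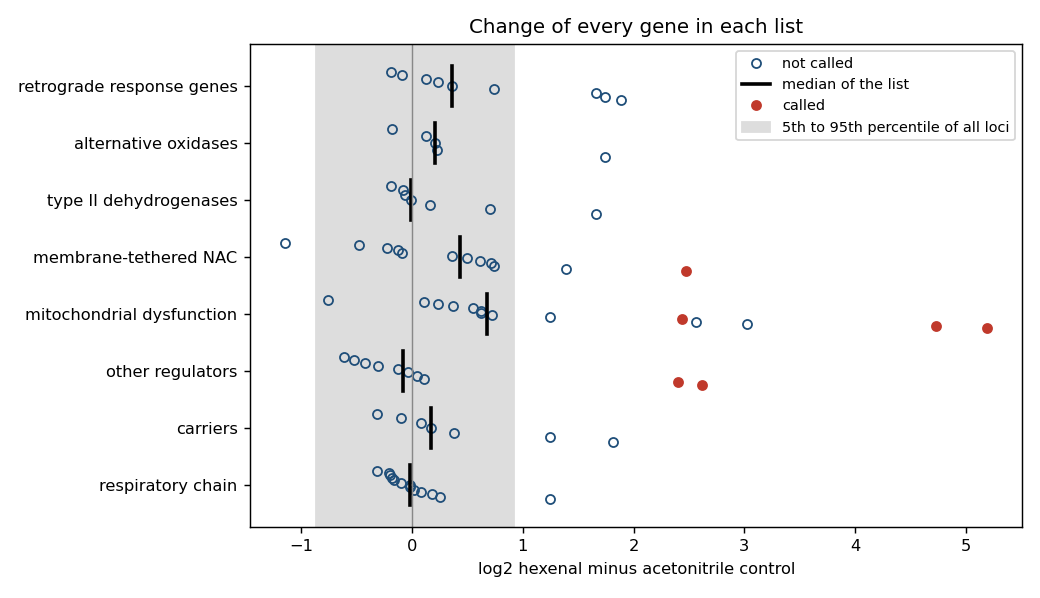
Mean log2 difference between hexenal and control for every gene of the 9 retrograde response genes and of 7 related lists. Filled red points passed the adjusted p and 2-fold thresholds, open points did not, black bars are list medians, and the grey band spans the 5th to the 95th percentile of all loci (-0.86 to 0.92). Called genes occur in the lists of membrane-tethered NAC factors (1), mitochondrial dysfunction (3) and other regulators (2).

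The named loci with the most similar pattern were found by the Euclidean distance between the 3 hexenal-minus-control differences, over 10347 other loci with a gene symbol. Nearest to OM66 were the phosphofructokinase gene PFK3 (distance 0.103), the Nudix hydrolase gene NUDT21 (0.128) and the RING ubiquitin ligase gene RDUF1 (0.230). Nearest to AOX1A were MSRB3, a methionine sulfoxide reductase gene (0.030), STN1 (0.057) and the class B heat shock factor gene HSFB2A (0.083). NDB2 had more distant neighbours, NAC3 (0.219), ERF15 (0.366) and the beta-glucosidase gene BGLU28 (0.550). In each of these, as in NDB2, array 3 was far below the other hexenal arrays. NAC3 was at 2.58, 2.09 and 0.45 above the control on arrays 1, 2 and 3. With 3 values per locus and a shared control, likeness of this kind is a description only.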

How the data were processed

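RNA of 4 plant samples was hybridised to one-colour Cy3 NimbleGen arrays, per the labels' protocols. For each array the authors deposited a table of linear intensity with 1 value per locus. How background was corrected, probes were combined and values were normalized is not stated in the sources read. Lower quartiles of the deposited log2 intensity differed by 0.201 between arrays, above a tolerance of 0.1, so log2 values were quantile normalized. Hexenal was tested against acetonitrile by limma 3.58.1 under R 4.3.3 (lmFit, then eBayes with no trend; 2 residual degrees of freedom), two-sided, with Benjamini-Hochberg adjustment over 30361 loci. An exact permutation test over the 4 arrays cannot go below a one-sided p of 0.25 and was not used. The number of arrays limits the precision. Recovery of known changes by the script was checked on simulated, independently drawn loci whose control varied like the hexenal arrays, so that check does not bear on the assumption made for the lone control.

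Names come from a RefSeq table of assembly TAIR10.1, which matched 29976 loci, and UPOX from the list of the 9 genes. No build is named for the arrays, so no coordinates are given, and sharing of probes between relatives was not tested. The 9 genes and all lists were chosen with earlier results of these data known. Named were the 9 genes, all alternative oxidases and type II dehydrogenases, in the other lists the called genes, filled up to 4 by size of change, and 3 nearest loci for each of the 3 genes with the largest change.

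Alternatives were cyclic loess, median centring, no normalization, dropping the dimmest 25% or 50% of loci, 16 added before the log, eBayes with trend and robust, no fold threshold, and leaving out each hexenal replicate. The trend and the robust prior alone were added after the data were seen.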

Additional observations from a re-analysis of the deposited data

How the results depend on the processing

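Of the 9 genes, 0 were called as reported, and the count moved to 2 (AOX1A and OM66) without the dimmest 50% of loci, with the variance trend and robust prior, and with the trend alone. It stayed at 0 with the robust prior alone, where 3 had an unadjusted p below 0.05. Leaving out 1 hexenal replicate gave 0 to 1 of the 9 genes, OM66 without replicate 1 and NDB2 without replicate 3. Among the 61 other list genes, 6 were called as reported, 11 with the trend and robust prior or with the trend alone, and 0 to 8 with 1 replicate left out, the 0 without replicate 2. Over all loci, 273 were called as reported, 628 with trend and robust, 610 with the trend alone, 480 without the dimmest 50% and 0 without replicate 2. Of the 9 genes, 8 kept their sign in every alternative that measured them, and AOX1D turned to -0.22 without replicate 2, with 0.30 as its highest value. The change of AOX1A ran from 1.67 to 1.88, that of OM66 from 1.77 to 2.07 and that of NDB2 from 1.24 to 2.37. Low intensities limit NDB2, NAC016 and AOX1D, and a single control limits every value. No paired analysis was possible because the control has 1 array and no replicate number in its label.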
